A study of Homo sapiens with 29 samples.

Results

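Imprinted genes are expressed mainly from the copy inherited from 1 parent, because marks on DNA and histones laid down in the germ line keep the other copy silent. Many act in fetal growth and metabolism, and several lie in clusters in which a shared control region sets the expression of neighbours. MEST, the mesoderm-specific transcript, encodes a protein of the alpha/beta hydrolase fold family and is expressed from the paternal copy. The libraries described here do not separate the parental copies, so only the total RNA of each gene was measured.

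The genes described are MEST and the imprinted genes PEG3, PEG10, PLAGL1, H19, NDN, MEG3, GRB10, SGCE and ZIM2, 10 of the 28266 gene symbols counted. They were chosen by the MEST level, which had been seen to be lower after RAS activation and lower again under SMARCA4 knockdown, so MEST values in those group comparisons are given as description, without a test. The other 9 genes keep their tests, although they too were chosen with earlier results of these data known.

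RNA was sequenced from IMR90 ER:RAS cells, human lung fibroblasts of an established line carrying a retroviral fusion of oncogenic RAS with a receptor domain that 4-hydroxytamoxifen (4OHT) switches on. All 18 libraries come from these ER:RAS cells, which were reverse transfected with siRNA and given 4OHT or its solvent DMSO, and the time of harvest is not given in the labels. DMSO_siNT is the solvent-treated group with a non-targeting siRNA, 4OHT_siNT is the RAS-activated group with a non-targeting siRNA, and 4OHT_siSMARCA4 is the RAS-activated group with an siRNA against SMARCA4, the ATPase that drives the SWI/SNF chromatin remodeller. Each group holds 6 libraries, 3 for siRNA number 2 and 3 for siRNA number 4. The comparisons ask how RAS-driven senescence, and SMARCA4 knockdown within RAS-activated cells, move gene expression. The steps named below are 4OHT_siNT against DMSO_siNT and 4OHT_siSMARCA4 against 4OHT_siNT. They compare parallel groups and are not an order in time. No group joins DMSO with an siRNA against SMARCA4, so knockdown without RAS activation was not measured.

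The counts per library ran from 9657309 to 18039313. Libraries carry set labels ending in V or VM, whose meaning the labels do not state. DMSO_siNT holds 3 V and 3 VM libraries, 4OHT_siNT holds 6 VM libraries, and in 4OHT_siSMARCA4 there are 3 of V, 2 of VM and 1 whose column is named 1VM, a set name that no sample title for that siRNA has, so its set was taken as unknown. The letters are not evenly split over the siRNA numbers. In 4OHT_siSMARCA4, number 4 holds 4-2V, 4-2VM and 4-3V, and number 2 holds 2-3V, 2-3VM and the library of unknown set. In DMSO_siNT, number 2 holds 2-1V, 2-2V and 2-2VM, and number 4 holds 4-2V, 4-2VM and 4-3VM. The DMSO_siNT 4-2V library stands apart from the other 5 libraries of its group, with a chi-square per degree of freedom of 209 to 315 against each of them and at most 52.5 between any other pair of libraries of 1 group. Values without it are given beside the results that it moves most.

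The knockdown was checked first. SMARCA4 stood at 217 ± 15.3 CPM (counts scaled to TMM-adjusted library size, mean ± SD, n = 6) in DMSO_siNT, 301 ± 20.9 CPM in 4OHT_siNT and 99.0 ± 27.6 CPM in 4OHT_siSMARCA4. Every knockdown library, at 70.4 to 141 CPM, lay below every 4OHT_siNT library, at 275 to 330 CPM. SMARCA4 was 3.04-fold lower under its siRNA than in 4OHT_siNT (log2 fold change -1.61 ± 0.14 SE, adjusted p = 1.30e-06, edgeR quasi-likelihood test with Benjamini-Hochberg adjustment, called under 0.05) and 1.39-fold higher in 4OHT_siNT than in DMSO_siNT (adjusted p = 0.00769). Fibroblast markers were present, with COL1A1 at no less than 1411 CPM and VIM at no less than 4107 CPM. The lowest values of the other fibroblast markers ran from 7.09 CPM (DCN and LUM) to 442 CPM (COL1A2). Among epithelial markers SFTPC was at 0 and CDH1 had at most 2 counts in any library, while KRT18 stood at 27.4 to 74.5 CPM. Among leukocyte markers CD68 stood at 45.0 to 74.9 CPM, and PTPRC, CD14 and CD3E had at most 4, 7 and 1 counts. The 4 endothelial markers summed to at most 14.9 CPM.

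MEST lies on the plus strand of chromosome 7 at 130486175 to 130506465 (GRCh38.p14), and the lines below show 250 bases upstream of 2 of its transcription starts with CG dinucleotides in capitals, because DNA methylation, the mark of imprinting, falls on CG pairs. The sequences come from RefSeq and lie inside the MEST locus, at chr7:130491079-130491328 and chr7:130491808-130492057, before starts at 130491329 and 130492058. They hold 11 and 16 CG pairs, against a median of 11 over 35116 RefSeq promoter windows, so 50.3% and 41% of windows hold at least as many. MEST windows not shown, before 130486175, 130486347 and 130492085, hold 9, 20 and 20 CG pairs (54.1%, 32.4% and 32.4% of windows hold at least as many).
MEST start 130491329: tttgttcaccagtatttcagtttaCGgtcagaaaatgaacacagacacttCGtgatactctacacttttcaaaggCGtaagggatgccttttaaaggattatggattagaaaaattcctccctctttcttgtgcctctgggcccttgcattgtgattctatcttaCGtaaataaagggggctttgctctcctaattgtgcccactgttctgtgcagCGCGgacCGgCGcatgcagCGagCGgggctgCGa
MEST start 130492058: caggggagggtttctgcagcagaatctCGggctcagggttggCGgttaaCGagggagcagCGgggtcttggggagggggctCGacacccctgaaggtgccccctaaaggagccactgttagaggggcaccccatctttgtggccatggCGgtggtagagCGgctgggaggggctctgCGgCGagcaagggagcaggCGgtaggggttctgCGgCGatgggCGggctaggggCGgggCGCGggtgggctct

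The same windows are shown for PLAGL1, which was lower in both steps as MEST was, and for NDN and MEG3, which were not called under knockdown. They are PLAGL1 before 144064599 on chromosome 6 (21 CG pairs, minus strand, chr6:144064600-144064849), NDN before 23687305 on chromosome 15 (30 CG pairs, minus strand, chr15:23687306-23687555), and MEG3 before 100826108 on chromosome 14 (13 CG pairs, plus strand, chr14:100825858-100826107).
PLAGL1 start 144064599: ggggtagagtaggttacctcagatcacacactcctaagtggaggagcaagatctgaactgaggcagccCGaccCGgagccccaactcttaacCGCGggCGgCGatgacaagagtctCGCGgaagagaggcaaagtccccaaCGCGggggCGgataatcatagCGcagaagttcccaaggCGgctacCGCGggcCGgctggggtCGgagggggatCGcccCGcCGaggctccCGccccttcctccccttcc
NDN start 23687305: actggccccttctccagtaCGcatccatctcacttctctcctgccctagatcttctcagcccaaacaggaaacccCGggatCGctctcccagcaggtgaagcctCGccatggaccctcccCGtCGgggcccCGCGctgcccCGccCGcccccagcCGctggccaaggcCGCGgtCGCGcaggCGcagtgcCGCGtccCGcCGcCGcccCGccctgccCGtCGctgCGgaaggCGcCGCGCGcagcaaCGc
MEG3 start 100826108: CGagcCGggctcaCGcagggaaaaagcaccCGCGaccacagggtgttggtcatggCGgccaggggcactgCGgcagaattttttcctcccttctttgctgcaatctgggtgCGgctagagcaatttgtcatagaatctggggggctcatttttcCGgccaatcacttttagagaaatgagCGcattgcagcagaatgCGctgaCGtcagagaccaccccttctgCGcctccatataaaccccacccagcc

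A search of the windows shown for TGCCGC, the hexamer recognised by ZFP57, found 1 match in the MEG3 window and 1 in the NDN window, and none in the MEST windows shown or the PLAGL1 window shown (either strand, 12.7% of all windows hold the hexamer). Windows not shown also held the hexamer, with 1 match in a MEST window before 130486347. Another PLAGL1 window, before 144008259, held 2 matches and 32 CG pairs, and 9.52% of all windows hold at least as many CG pairs. The PLAGL1 window shown is therefore not the only one, and which windows lie in imprinted control regions was not examined. TGANTCA, the AP-1 site, matched none of the windows shown (6.57% of all windows), and TGACGTCA, the CRE site, matched the MEG3 window alone (1.65% of all windows). A PLAGL1 window not shown, before 143961412, held 1 AP-1 match. Promoter windows for PEG3, PEG10, SGCE and ZIM2 were not used here. MEST also contains the gene of miR-335, whose mature strands are shown with the seed, bases 2 to 8, in capitals.
hsa-miR-335-5p: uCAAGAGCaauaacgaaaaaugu
hsa-miR-335-3p: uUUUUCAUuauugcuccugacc

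MEST had 201, 277 and 388 CPM as its lowest, median and highest value in DMSO_siNT, 18.01, 30.8 and 57.6 CPM in 4OHT_siNT, and 2.25, 3.87 and 4.46 CPM in 4OHT_siSMARCA4. The 3 groups did not overlap. The mean was 286 ± 64.8 CPM in DMSO_siNT, 33.8 ± 15.6 CPM in 4OHT_siNT and 3.68 ± 0.759 CPM under knockdown (n = 6 each), which is 8.48-fold lower with RAS activation (log2 fold change -3.08 ± 0.26 SE) and a further 9.15-fold lower with knockdown (-3.19 ± 0.28). Against DMSO_siNT the knockdown group was 77.6-fold lower (-6.28 ± 0.31). These values chose MEST and carry no test. In bulk libraries, fewer cells that express a gene and less of its RNA per cell cannot be told apart.

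**Figure D1:**
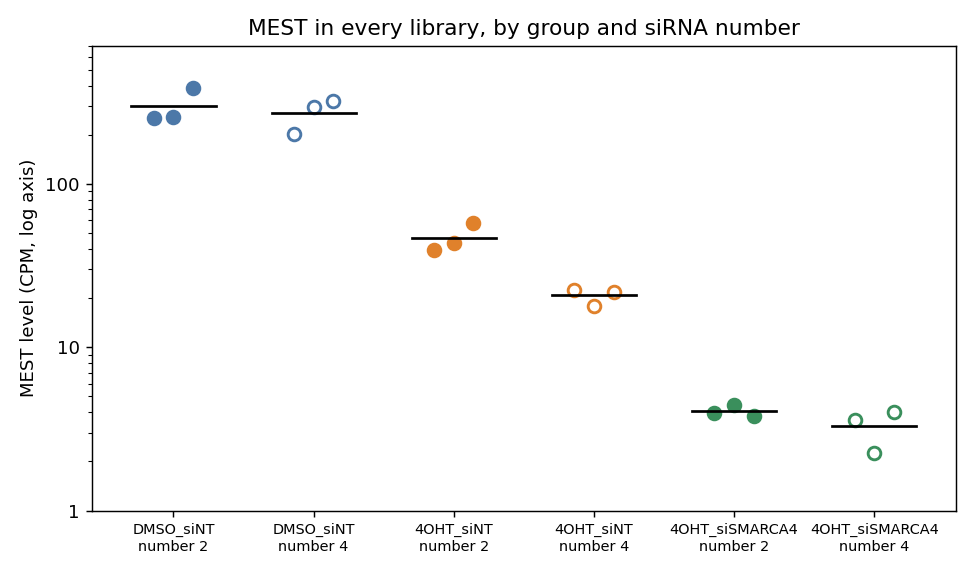
MEST level in CPM (log axis) in each library, by group and siRNA number, with filled points for number 2, open points for number 4 and a line at the mean of each 3 libraries. The 6 DMSO_siNT libraries lie between 201 and 388 CPM, the 4OHT_siNT libraries between 18.01 and 57.6 CPM, and the knockdown libraries between 2.25 and 4.46 CPM.

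The order of the means by siRNA number was DMSO_siNT number 2 (299 CPM), DMSO_siNT number 4 (273), 4OHT_siNT number 2 (46.8), 4OHT_siNT number 4 (20.8), 4OHT_siSMARCA4 number 2 (4.07) and 4OHT_siSMARCA4 number 4 (3.29). The first pair overlapped, and so did the last pair. The 4OHT_siNT libraries with siRNA number 2 held 39.2, 43.7 and 57.6 CPM, and those with number 4 held 22.4, 18.01 and 21.9 CPM, so this pair did not overlap. The share of all genes that do not overlap between these siRNA numbers was not counted. MEST was 2.25-fold higher with number 2 (log2 difference 1.17 ± 0.23 SE, adjusted p = 0.0559, edgeR), which missed the threshold of 0.05. DESeq2 gave an adjusted p of 0.000513 for it, and adjusted p ranged from 0.000513 to 0.456 over the alternatives run. Without the DMSO_siNT 4-2V library MEST passed the threshold (1.18, adjusted p = 0.00364). At the threshold, 0.0732% of 13659 genes differed between the 2 non-targeting siRNAs in 4OHT, and no member was called (2 members, MEST and MEG3, had an unadjusted p under 0.05; DESeq2 called 1).

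Between the siRNAs against SMARCA4, MEST differed by 0.31 ± 0.27 SE on the log2 scale, number 2 against number 4, with a 95% interval of -0.22 to 0.84 (adjusted p = 0.894), and 0.00732% of genes were called. In DMSO the log2 difference of siNT number 2 against number 4 was 0.12 ± 0.22 (adjusted p = 0.731), where 0.0512% of genes were called. The knockdown response, the log2 fold change under the siSMARCA4 of a number against the siNT of that number, differed by -0.86 ± 0.35 SE between number 2 and number 4 (interval -1.55 to -0.17, adjusted p = 0.586), and 0.0146% of genes differed in this contrast. The labels do not link an siNT to the siSMARCA4 of the same number, so the pairing is by number only. In 4OHT, number 2 and number 4 differed by 1.17 for siNT and by 0.31 for siSMARCA4. The same pairing underlies knockdown values given for 1 number alone. No member was called in any of the 4 siRNA contrasts by edgeR. At an unadjusted p under 0.05 stood no member between the SMARCA4 siRNAs, MEG3 between the non-targeting siRNAs in DMSO, and MEST and PLAGL1 for the knockdown response. DESeq2 called no member in these 3 contrasts.

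MEST was also compared by set letter. In DMSO_siNT the V libraries held 252, 259 and 201 CPM and the VM libraries 388, 295 and 324 CPM, with no overlap and a log2 difference of V minus VM of -0.50 (exact two-sided permutation test over libraries, p = 0.1, the smallest this design allows). Under knockdown the V libraries held 3.94, 3.59 and 4.04 CPM and the VM libraries 4.46 and 2.25 CPM, a log2 difference of 0.27 (exact permutation p = 0.7, smallest possible 0.1), which turned to -0.20 without the 4-2VM library. Within the VM sets alone, MEST was lower by a log2 fold change of -3.31 in 4OHT_siNT against DMSO_siNT and of -3.33 in the knockdown against 4OHT_siNT.

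Marker sums also moved with the groups. For 6 epithelial markers DMSO_siNT summed to 103 to 144 CPM, 4OHT_siNT to 62.4 to 78.9 CPM and the knockdown to 34.1 to 57.0 CPM. Nearly all of it was KRT18, KRT19 and KRT8, since EPCAM had at most 2.15 CPM, CDH1 at most 2 counts and SFTPC 0. For 8 fibroblast markers the sums were 11448 to 31306, 14920 to 19815 and 8627 to 12575 CPM. The part of these shifts in the MEST values was not tested.

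Among the members, PLAGL1, a zinc finger factor that restrains proliferation, was lower in both steps, as MEST was. It held 21.2, 32.1 and 38.8 CPM (lowest, median and highest) in DMSO_siNT, 12.8, 14.8 and 16.3 CPM in 4OHT_siNT and 5.10, 6.62 and 10.7 CPM under knockdown. No group overlapped another. PLAGL1 fell 2.16-fold with RAS activation (log2 fold change -1.11 ± 0.17 SE, adjusted p = 1.99e-05) and fell a further 1.99-fold under knockdown (-0.99 ± 0.18, adjusted p = 0.00127). The knockdown call was lost with siRNA number 4 alone (-0.68, adjusted p = 0.419) and held with number 2 alone (-1.36, adjusted p = 6.35e-05). The difference between the numbers' knockdown responses was -0.69 ± 0.31 (adjusted p = 0.669). SMARCA4 itself was not called with number 4 alone (adjusted p = 0.0925). In the number 4 knockdown libraries PLAGL1 held 10.7 and 9.07 CPM (V) and 5.45 CPM (VM). In those of number 2 it held 6.30 (V), 5.10 (VM) and 6.95 CPM (set unknown). Within the VM sets alone its knockdown log2 fold change was -1.48 (adjusted p = 3.72e-05). The part of the set letters in the difference between numbers was not tested.

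PEG10, a retrotransposon-derived gene expressed from the paternal copy, rose in 1 step and fell in the other. It held 33.8, 55.7 and 71.0 CPM in DMSO_siNT, 70.9, 84.4 and 88.2 CPM in 4OHT_siNT and 28.9, 36.3 and 53.0 CPM under knockdown. The knockdown libraries all lay below the 4OHT_siNT libraries, while the first pair of groups just overlapped. PEG10 rose 1.53-fold with RAS activation (log2 fold change 0.61 ± 0.17, adjusted p = 0.00432) and fell 2.09-fold under knockdown (-1.07 ± 0.17, adjusted p = 0.000453). The knockdown call was lost with siRNA number 4 alone (-1.001, adjusted p = 0.164), where SMARCA4 itself was not called either. Against DMSO_siNT the knockdown group was 1.37-fold lower (-0.46 ± 0.17, adjusted p = 0.0279), a call that 6 single-library omissions ended, with adjusted p from 0.0531 to 0.0748.

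SGCE, which encodes a sarcoglycan of the cell membrane, starts 191 bases from PEG10 on the opposite strand in RefSeq, and the pair is known to share a control region. In the GENCODE annotation SGCE and PEG10 overlap, and whether the counting used strand is not given. SGCE held 17.5, 22.6 and 27.6 CPM in DMSO_siNT, 6.77, 7.99 and 9.41 CPM in 4OHT_siNT and 6.22, 8.69 and 10.7 CPM under knockdown. It fell 2.91-fold with RAS activation (log2 fold change -1.54 ± 0.14, adjusted p = 2.27e-08), where PEG10 rose. Under knockdown SGCE differed by 0.11 ± 0.14 on the log2 scale (interval -0.17 to 0.38, adjusted p = 0.697), where PEG10 fell.

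NDN, the necdin gene of the Prader-Willi region, acts in growth arrest and neuronal differentiation. It held 28.4, 36.98 and 84.9 CPM in DMSO_siNT, 10.3, 16.4 and 20.7 CPM in 4OHT_siNT and 19.5, 21.2 and 25.995 CPM under knockdown. The value of 84.9 CPM is the DMSO_siNT 4-2V library. NDN fell 2.63-fold with RAS activation (-1.39 ± 0.23, adjusted p = 3.66e-05), and without that library it fell by 1.09 on the log2 scale (adjusted p = 1.53e-06). Under knockdown it differed by 0.40 ± 0.22 (adjusted p = 0.289), and without the same DMSO_siNT library the value was 0.39 with an adjusted p of 0.0454.

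GRB10, an adaptor that dampens insulin and growth factor receptor signalling, held 12.4, 25.9 and 30.7 CPM in DMSO_siNT, 53.7, 60.1 and 76.4 CPM in 4OHT_siNT and 46.8, 52.9 and 65.9 CPM under knockdown. It rose 2.50-fold with RAS activation (log2 fold change 1.32 ± 0.16, adjusted p = 1.44e-06), with every 4OHT_siNT library above every DMSO_siNT library. The 12.4 CPM is the DMSO_siNT 4-2V library, and without it the log2 fold change was 1.20 (adjusted p = 8.11e-09). Under knockdown it differed by -0.20 ± 0.16 (adjusted p = 0.470), and with siRNA number 2 alone by -0.50 (adjusted p = 0.00438).

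MEG3, a long non-coding RNA expressed from the maternal copy, held 220.4, 253 and 356 CPM in DMSO_siNT, 215, 251 and 289 CPM in 4OHT_siNT and 182, 229.7 and 249.9 CPM under knockdown. The groups overlapped, and the log2 difference was -0.06 ± 0.13 with RAS activation (interval -0.30 to 0.19, adjusted p = 0.718) and -0.18 ± 0.13 under knockdown (interval -0.43 to 0.06, adjusted p = 0.402). The 356 CPM is again the DMSO_siNT 4-2V library, and without it the difference with RAS activation was 0.06 (adjusted p = 0.661).

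The other 3 members were at or near 0. H19, a long non-coding RNA of the IGF2 locus, had 0 counts in all 18 libraries, which allows a level of up to 0.168 to 0.359 CPM, a limit of counting error only. PEG3, a zinc finger gene, had 2 to 14 counts in a library, and ZIM2, which shares 5′ exons with it, had 4 counts in all. PEG3 and ZIM2 lie on the same strand and share exons, so their counts are uncertain. Whether the counting used strand is not given in the sources used here, and without it reads of MEST and its antisense partner MESTIT1 (15 counts in all) cannot be told apart. COPG2 also overlaps MEST in the GENCODE annotation, and PEG10 and SGCE overlap each other there, so reads of the shared stretches are uncertain too. None of the 3 passed the filter on low counts in the 3-group test.

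**Figure D2:**
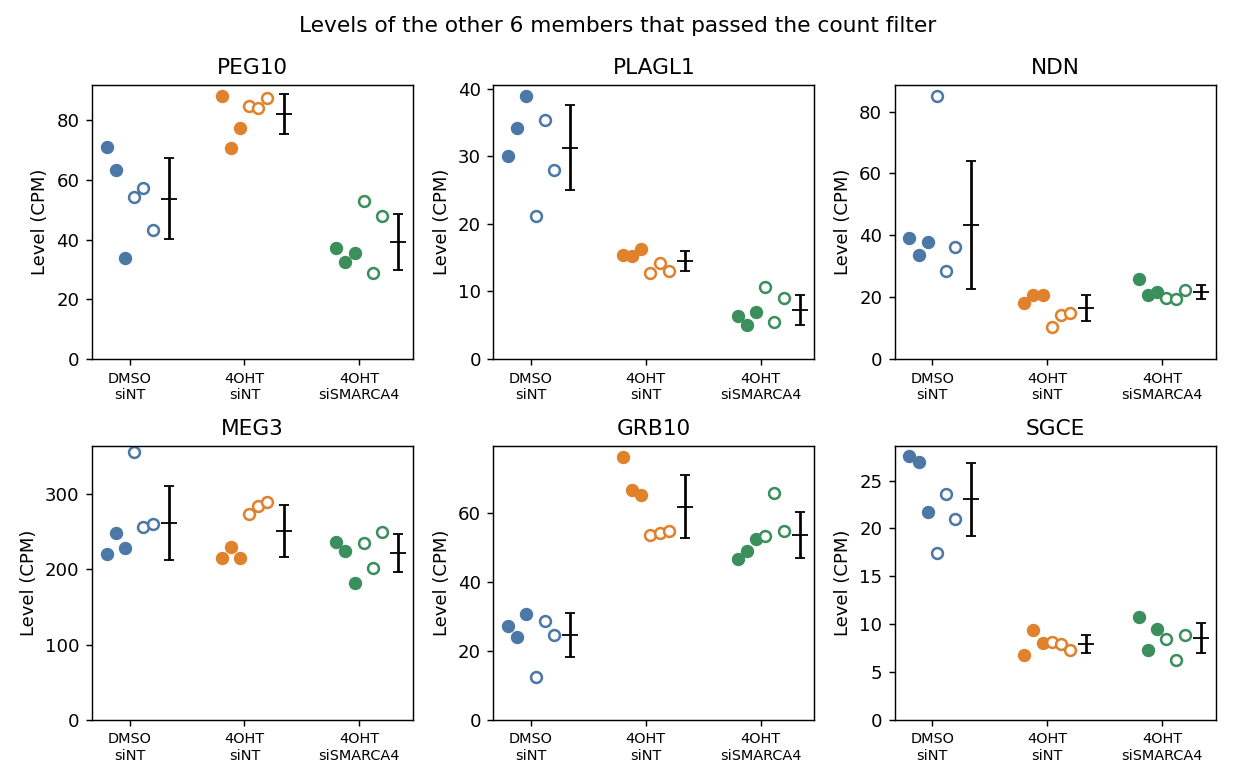
Levels in CPM (linear axis from 0) of the other 6 members that passed the filter, 1 point a library, filled for siRNA number 2 and open for number 4, with mean ± SD of 6 libraries beside each group. PLAGL1 is lower in each step, PEG10 stands highest in 4OHT_siNT at 82.2 ± 6.71 CPM, and NDN and MEG3 each have 1 high DMSO_siNT library.

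Counted over the 6 members other than MEST that were tested, 2 rose and 3 fell with RAS activation, against 23.9% of 13136 genes higher and 28.9% lower (52.8% called in all). Under knockdown 0 rose and 2 fell, against 4.99% and 5.65% (10.6% in all), and against DMSO_siNT 1 rose and 4 fell in the knockdown group, against 23.3% and 27.3% (50.5% in all). Their median log2 fold change was -0.58 with RAS activation, beside -0.05 over all genes, and -0.19 under knockdown, beside 0.01. PLAGL1, NDN and SGCE lay below all DMSO_siNT libraries in 4OHT_siNT, as did 16.8% of genes, and GRB10 lay above, as did 17% of genes. Under knockdown PEG10 and PLAGL1 lay below every 4OHT_siNT library, as did 6.27% of genes, and no member lay above, as 5.12% of genes did. MEST is not counted here, because its lower level in both steps chose it.

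**Figure D3:**
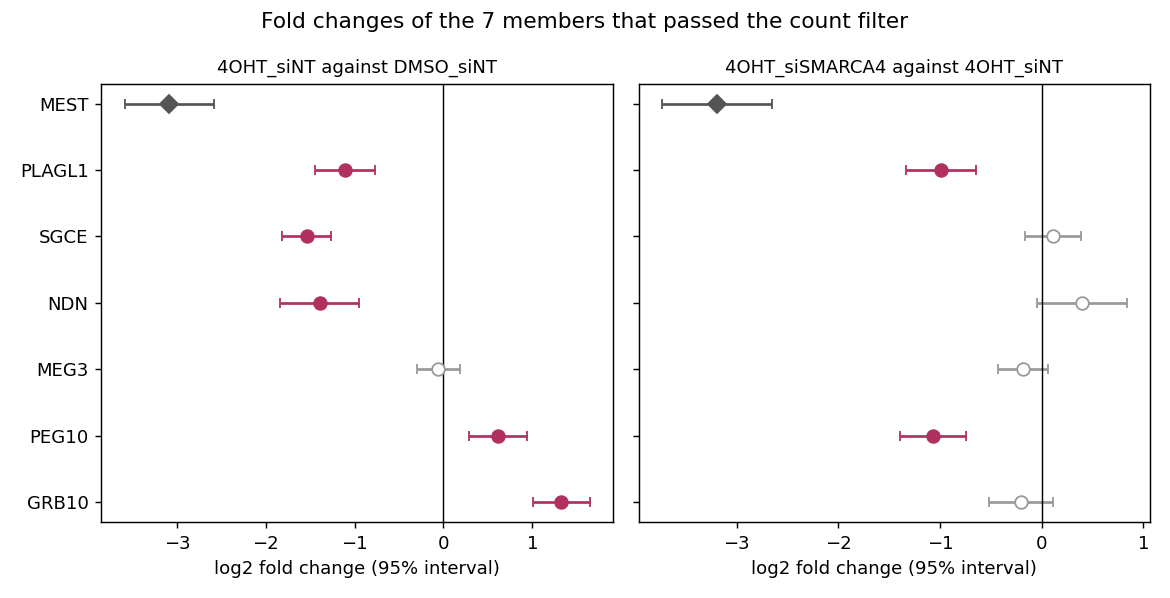
Log2 fold changes with 95% intervals of 7 members in the 2 steps, filled red where called at an adjusted p under 0.05, open grey where not, and a grey diamond for MEST, which carries no test. MEST lies at -3.08 and -3.19, PLAGL1 is negative in both steps, and PEG10 turns from 0.61 to -1.07.

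Levels were also divided by the length of the merged exons, 4.767 kb for MEST, 23.224 kb for MEG3 and 20.876 kb for SGCE. Merging joins all annotated exons of a gene, so the order of genes depends on this length. Per kilobase MEST was the highest member in DMSO_siNT at 60.1 CPM, above NDN at 22.7 CPM. In 4OHT_siNT it stood at 7.09 CPM per kilobase, and under knockdown at 0.772 CPM per kilobase, below NDN at 11.4 and MEG3 at 9.54, and above SGCE at 0.409. Without division by length, MEST at 3.68 CPM lay below SGCE at 8.53 CPM under knockdown. In DMSO_siNT the undivided means were 286 CPM for MEST and 261 CPM for MEG3.

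Of 69 other genes described as imprinted in humans in at least some tissues, 66 were in the table and 40 were tested. Whether they are imprinted in these fibroblasts was not measured. With RAS activation 10 rose and 11 fell, beside 23.9% of all genes higher and 28.9% lower, with a median of -0.18 beside -0.05. Under knockdown 3 rose and 2 fell, beside 4.99% and 5.65% of all genes, with a median of -0.08 beside 0.01. In this main fit the shares called were near those of all genes in both steps. Without the DMSO_siNT 4-2V library 15 were called under knockdown. The share of all genes called in that fit is not given here, so the 15 cannot be set against it. TFPI2, an inhibitor of serine proteases, rose from 67.2 ± 19.2 to 944 ± 73.5 CPM (log2 fold change 3.81 ± 0.20, adjusted p = 8.51e-12) with RAS activation. IGF2, a fetal growth factor, rose from 1.12 ± 0.665 to 6.82 ± 2.74 CPM (2.54 ± 0.39, adjusted p = 2.21e-05), and under knockdown rose again to 19.4 ± 9.28 CPM (1.51 ± 0.33, adjusted p = 0.00617), with values of 2.52 for siRNA number 2 alone (adjusted p = 3.93e-05) and 0.43 for number 4 alone (adjusted p = 0.731). ATP10A, a phospholipid transporter, fell from 25.3 ± 14.5 to 2.75 ± 0.749 CPM (-3.21 ± 0.39, adjusted p = 1.12e-06). COPG2IT1, an antisense transcript near MEST, had 11 to 27 counts a library in DMSO_siNT, 0 to 1 in 4OHT_siNT and 0 under knockdown. GPR1 had 12 to 43 counts, then 0 to 6. CDKN1C, a cyclin-dependent kinase inhibitor, fell by 2.33 on the log2 scale with RAS activation. Its DMSO_siNT libraries had a mean of 9.98 CPM and a median of 5.61 CPM, and the highest stood at 32.3 CPM. The CDKN1C value was -1.50 without the DMSO_siNT 4-2V library (adjusted p = 3.37e-05) and -1.22 in the VM sets alone (adjusted p = 0.00100). NNAT fell by 1.82 on the log2 scale. KCNQ1OT1 fell by 1.49, and its value was -0.90 without the DMSO_siNT 4-2V library (adjusted p = 0.0133) and -0.52 in the VM sets alone, where the call was lost (adjusted p = 0.107). Under knockdown NNAT rose by 1.38, SLC22A18 rose by 0.95 and DIRAS3, a RAS-related GTPase, fell by 0.97 on the log2 scale. With siRNA number 4 alone none of the 40 was called under knockdown, and SMARCA4 itself was at -1.66 with an adjusted p of 0.0925.

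**Figure D4:**
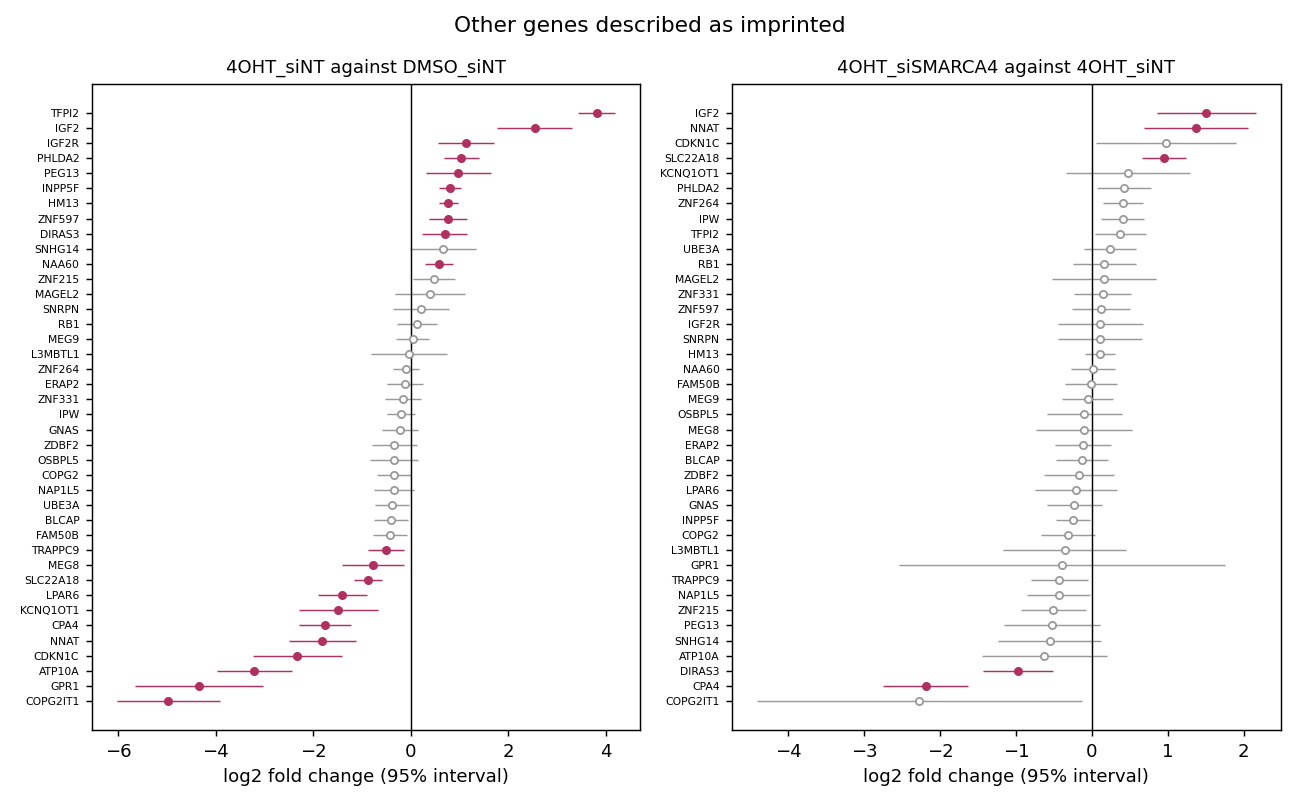
Log2 fold changes with 95% intervals of 40 other genes described as imprinted in at least some tissues, ordered by value in each step, filled red where called. With RAS activation fitted values run from COPG2IT1 at -4.97, which has 0 to 1 counts a library in 4OHT_siNT, to TFPI2 at 3.81, and under knockdown CPA4 stands lowest among the called genes at -2.19 and IGF2 highest at 1.51.

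CPA4, a carboxypeptidase gene 161994 bases before MEST on chromosome 7 (130293161 to 130324180), was lower in both steps. It held 168.7 ± 45.7 CPM in DMSO_siNT, 49.6 ± 19.6 CPM in 4OHT_siNT and 10.9 ± 4.23 CPM under knockdown. CPA4 fell by 1.77 with RAS activation (adjusted p = 2.15e-05) and by 2.19 under knockdown (adjusted p = 9.52e-05) on the log2 scale. The knockdown value was -3.05 with siRNA number 2 alone (adjusted p = 3.42e-07) and -1.26 with number 4 alone, a call lost (adjusted p = 0.164). SMARCA4 itself was not called with number 4 alone. Of the 3 genes with counts on each side of MEST, CEP41, 44433 bases away, fell by 0.69 with RAS activation (adjusted p = 0.000285) and differed by 0.12 under knockdown (adjusted p = 0.637). COPG2IT1, on the other side at 36987 bases, fell by 4.97 on the log2 scale with RAS activation (adjusted p = 2.16e-06). It had 11 to 27 counts a library in DMSO_siNT and 0 to 1 in 4OHT_siNT. Under knockdown it had 0 counts and was not called (-2.27, adjusted p = 0.215). CPA1, CPA5, KLF14 and MIR29A had at most 10 counts in a library and were not tested. COPG2, which overlaps the end of MEST, differed by -0.34 and -0.32 (adjusted p = 0.115 and 0.293), and with the DMSO_siNT 4-2V library left out it passed the test with RAS activation (-0.48, adjusted p = 0.00258). With RAS activation COPG2 was also called in the VM sets alone (-0.35, adjusted p = 0.0118) and with siRNA number 2 alone (-0.52, adjusted p = 0.00726). Under knockdown it was called in the VM sets alone (-0.43, adjusted p = 0.0306), in the VM sets with the library of unknown set (-0.47, adjusted p = 0.00425) and with siRNA number 2 alone (-0.54, adjusted p = 0.0186).

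Of 25 listed genes that write, copy, keep or erase the marks of imprinting, 21 were tested. With RAS activation 1 rose and 10 fell (median -0.25), beside 23.9% of all genes higher and 28.9% lower (median -0.05), and 5 were called in all with the set label as a block. HELLS, a chromatin remodeller, fell by 2.87 on the log2 scale (10.4 ± 1.79 to 1.41 ± 0.465 CPM, adjusted p = 1.44e-09). UHRF1, which brings DNMT1 to newly copied DNA, fell by 1.44 (adjusted p = 3.12e-06), and TET1, a DNA demethylation enzyme with 11 to 25 counts a library in DMSO_siNT and 2 to 5 in 4OHT_siNT, was lower too (adjusted p = 9.26e-06). Under knockdown none of the 21 passed (median -0.09), beside 10.6% of all genes called (median 0.01). There 4 had an unadjusted p under 0.05 by edgeR (ZNF445, DNMT3A, DNMT1 and TET3), and DESeq2 called 3. Without the DMSO_siNT 4-2V library edgeR called 4. The shares of all genes called in these other fits, and with the block, are not given here.

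The genes whose log2 CPM ran closest to MEST over the 18 libraries were PCDH7, a protocadherin (Pearson r = 0.990), TBX5, a T-box factor of the lung and heart (0.983), GLIPR2 (0.982), ANO4 (0.981) and ACTG2, a smooth muscle actin (0.979), among 11513 genes. PLAGL1 ranked at place 29 at 0.959, SGCE at place 722, NDN at 2214, MEG3 at 3519, PEG10 at 3744 and GRB10 at 10028 at -0.681. The 18 libraries fall into the 3 groups, which the points share. After group means were taken out, none of the 5 remained among the closest 5, and by Spearman's correlation 1 did.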

How the data were processed

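Polyadenylated RNA was sequenced from IMR90 ER:RAS cells with a kit that marks strand. The authors deposited raw counts per gene symbol and lane, made from reads aligned with STAR 2.7.8a to hg38 (submitters' processing notes, which also name DESeq2 1.36.0). The annotation, the counting program and its use of strand are not given in the sources used here. The 2 lanes of each library were summed. Of 29 labelled samples 17 matched a column, 12 were not analysed here, and 1 library matched a group by its column name, whose set name (1VM) no title of that siRNA has; it is called unlabelled.

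Counts were tested with edgeR 4.0.16 (glmQLFit and glmQLFTest, TMM scaling, filterByExpr with a minimum count of 10, R 4.3.3) in 1 fit of 3 groups (13136 genes) and 1 fit of 6 levels by siRNA number (13659 genes), called at a Benjamini-Hochberg adjusted p of 0.05 over all genes tested. CPM used TMM library sizes and log2 CPM a prior count of 2. Intervals are 95%. Nothing says that libraries came from separate cultures, so p-values measure the spread between these libraries, which may be technical. The members and gene lists were chosen with earlier results of these data known. The text names the members, SMARCA4, the called list genes with the largest changes (up to 12 a contrast), the neighbours of MEST and the 5 genes most like MEST. COPG2 falls outside this rule and was named after its values were seen, for its overlap with MEST. Alternatives were DESeq2 1.42.0, other scalings and filters, a replicate block, subsets of sets or siRNA numbers, and leaving out each library. Where this left 1 library in a level, it was assumed to vary like the other levels. The VM sets with the unlabelled library and likeness after removing group means were chosen after seeing the data. Gene positions and promoter windows are from RefSeq (GRCh38.p14), and 6 of 10 members had a window. Exon lengths are merged GENCODE exons. The scripts were tested on simulated data.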

Additional observations from a re-analysis of the deposited data

Results flagged for a closer look

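A sample was flagged where its gap to the nearest other library of its group exceeded Dixon's limit on the log2 scale; 27 groups were tested, 4 were flagged, and chance flags about 1 in 20. The DMSO_siNT 4-2V library was flagged 3 times, for NDN at 84.9 CPM (next 39.2), MEG3 at 356 CPM (next 260.1) and GRB10 at 12.4 CPM (next 24.04). It also held the lowest MEST, PLAGL1 and SGCE of its group. The 4OHT_siSMARCA4 4-2VM library was flagged for MEST at 2.25 CPM (next 3.59), from 26 counts.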

How the results depend on the processing

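With RAS activation, 5 members were called under 11 of 12 alternatives and in every single-library omission, and 4 over 2-fold. Under knockdown, members called went from 2 to 1 with the replicate block, 0 with siRNA number 4 alone and 1 over 2-fold, and were 2 to 3 without single libraries. Against DMSO_siNT they went from 5 to 3 over 2-fold. Between non-targeting siRNAs in 4OHT they went from 0 to 1 by DESeq2, 1 with all genes of at least 1 count and 4 in VM sets alone, and were 0 to 2 without single libraries (MEST was called without DMSO_siNT 2-2VM, MEST and NDN without DMSO_siNT 4-2V). In DMSO they were 0 to 2, NDN and MEG3 being called without DMSO_siNT 4-2VM. Other genes described as imprinted that were called with RAS activation went from 21 to 12 over 2-fold. Under knockdown they went from 5 to 1 with the block, 14 in VM sets, 14 with the unlabelled library added, 16 with only the groups compared, 12 with siRNA number 2, 0 with number 4 and 3 over 2-fold, and were 5 to 15 without single libraries (15 without DMSO_siNT 4-2V). Maintenance genes called went from 11 to 5 with the block and 6 over 2-fold with RAS activation, and under knockdown from 0 to 3 by RLE scaling, 1 by upper quartile, 3 by DESeq2, 3 with at least 10 counts everywhere, 5 in VM sets, 5 with the unlabelled library, 4 with only the groups compared and 2 with siRNA number 2, and were 0 to 4 without single libraries. The share of all genes called under each alternative is not given here, so these counts do not compare the lists with all genes. The cause of the shifts was not tested.

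Of library pairs that share a set label, 5 of 15 had a correlation of deviations over 0.1 (median 0.057), beside 11 of 81 pairs with other labels (median 0.0066). The main fit used no pairing by label, because not every shared-label pair passed 0.1. This rule cannot exclude a pairing, since the shared-label pairs had the higher median, so the block is given as an alternative. The block, which drops the unlabelled library, ended the PLAGL1 knockdown call (-1.14, adjusted p = 0.0718) and the PEG10 call against DMSO_siNT (-0.40, adjusted p = 0.105).

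Values that were not called changed sign as follows. With the block they were MEG3 0.016 with RAS activation, GRB10 0.022 and SGCE -0.19 under knockdown, MEG3 0.080 and SMARCA4 0.18 between SMARCA4 siRNAs, PEG10 -0.24 between non-targeting siRNAs in DMSO, and PEG3 -0.52 for the knockdown response. In VM sets alone they were MEG3 0.019 with RAS activation, SGCE -0.24 under knockdown, PEG10 0.19, MEG3 0.16 and SMARCA4 0.32 between SMARCA4 siRNAs, PEG10 -0.59, NDN 0.21 and SGCE -0.058 in DMSO, and PEG10 0.32 for the response. With the unlabelled library added they were MEG3 0.017, SGCE -0.055 and CEP41 -0.054, and with siRNA number 4 alone GRB10 0.072 and SGCE -0.0010. Without single libraries the ranges were MEG3 -0.10 to 0.056 with RAS activation, MEG3 -0.16 to 0.021 and SMARCA4 -0.28 to 0.27 between SMARCA4 siRNAs, SGCE -0.065 to 0.17 in 4OHT, MEST -0.11 to 0.27, PEG10 -0.090 to 0.38 and NDN -0.70 to 0.19 in DMSO, PEG3 -0.39 to 0.52, PEG10 -0.39 to 0.010 and SMARCA4 -0.14 to 0.42 for the response, and MEST -0.20 to 0.74 by set letters under knockdown. PEG3 and ZIM2 had too few counts for the test of 3 groups. H19 was listed at 0 in every library, and the counting settings are not given in the sources used here.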
